A study of Arabidopsis thaliana with 42 samples.

Results

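The genes described here are 44 nuclear genes of Arabidopsis that encode antenna proteins and subunits of both photosystems, a chosen list and not a full census. They comprise 21 LHCA and LHCB genes of the light-harvesting antenna, 12 PSA genes of photosystem I (PSI) and 11 PSB genes of photosystem II (PSII). The members were found by their gene identifiers among the 27050 genes of the deposited table. No measured value entered this lookup, but the set was chosen with earlier results of these data known. All 44 were present and were tested in every comparison. Expression was measured by RNA-seq in leaves of WT Col-0 and of *rpn12a-236*, an EMS-mutagenized Col-0 line with a premature stop codon in *RPN12a*, which encodes a lid subunit of the proteasome regulatory particle. Plants of both genotypes were grown in short days, and an individually darkened leaf (IDL) is a single leaf that is covered while its plant stays in the light.

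The *rpn12a-236* groups were light leaves at 0 d and IDLs covered for 6 h, 1 d, 3 d or 6 d. The WT groups were IDLs covered for the same times and light leaves at 0 d and at each of those times. Each of the 14 groups had 3 libraries, each made from pooled leaves of independent plants, which gives 42 libraries. Light leaves of *rpn12a-236* at later times were not analysed here, so darkened and light leaves of 1 time point were compared in WT alone. The 6 h leaves came from an afternoon harvest and all others from the morning, so that in *rpn12a-236* the effect of darkness at 6 h and that of the hour of day cannot be told apart. The mutant is a single backcrossed line, and other mutations that it may still carry cannot be told apart from the one in *RPN12a*. Leaves were measured whole, so that fewer cells of a type and less RNA per cell cannot be told apart.

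Values are z-scores, that is, the normalised expression of a gene minus its mean over the 42 libraries, divided by its standard deviation (SD) over them. A difference of 1 is therefore 1 SD of that gene and not a fold change, and it carries neither the RNA level of a gene nor how deeply a library was sequenced. Differences were tested with limma over all genes and adjusted by the Benjamini-Hochberg method, and a gene was called at an adjusted p of at most 0.01. *RPN12a* transcript was higher in *rpn12a-236* light leaves, with 1.37, 1.28 and 1.19, against -0.91, -0.74 and -0.85 in WT light leaves at 0 d (limma, adjusted p = 1.6e-11), and since the lesion is a single base its transcript level does not show it. *SAG12*, a protease gene used as a marker of leaf senescence, stood at 0.75, 0.94 and 0.53 in *rpn12a-236* IDLs at 6 d and at 2.46, 2.5 and 2.72 in WT IDLs at 6 d. Cell type markers also moved. The 2 epidermis markers tested were lower in WT IDLs than in light leaves at 1 d, 3 d and 6 d, and 1 of 2 xylem markers was lower at each of these times. Of 3 phloem markers, 2 were higher in IDLs at 6 h, 3 d and 6 d, while *SUC2* was lower at 1 d and 3 d, by -1.86 and -3.50. Of 4 guard cell markers, *KAT1* was higher at 1 d, 3 d and 6 d, 2 were lower at 1 d and at 3 d, and 1 was lower at 6 h. By the interaction of genotype and darkening, the mutant response minus that of WT, *FAMA* and *FDH* were higher in *rpn12a-236* at 1 d, *FAMA*, *SUC2* (3.69) and *ATML1* higher and *KAT1* (-2.35) and *AHA3* lower at 3 d, and *ATML1* (1.39) higher and *KAT1*, *KAT2* and *FDH* (-1.25) lower at 6 d. The part of these markers in the results was not tested. No 2 libraries correlated above 0.732 across genes, so none was a copy of another.

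Light-harvesting chlorophyll proteins capture light and pass its energy to the reaction centres, where PSII draws electrons from water and PSI hands them to ferredoxin. The proteins described here are made from nuclear genes, imported into the chloroplast and assembled there with chlorophyll and with subunits made from chloroplast genes. In leaves, transcripts of these genes are known to follow light, the circadian clock and chloroplast signals, and to decline as a leaf senesces. LHCB1, LHCB2 and LHCB3 form the trimeric antenna of PSII (LHCII), LHCB4, LHCB5 and LHCB6 are its minor monomeric antennae, and LHCA1 to LHCA4 form the antenna of PSI (LHCI).

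The 250 bases before the transcription start are shown for 4 antenna genes, since the results below turn on how far members of 1 family differed. *LHCB6* (AT1G15820) followed the other members most closely over the libraries, *LHCB4.2* (AT3G08940) was the minor antenna gene that was higher in WT IDLs than in WT light leaves at 6 h, and *LHCB1.4* (AT2G34430) and *LHCB1.5* (AT2G34420) are neighbours on chromosome 2 whose levels differed. Reads of these close copies could be split between them, as given below. The *LHCB1.4* gene lies at chr2:14524607-14525918 on the plus strand and *LHCB1.5* at chr2:14522524-14523568 on the minus strand, so that they point away from each other and both windows lie between them. Sequences are from RefSeq on TAIR10.1, are written 5′ to 3′ along the gene's own strand, and end at the base before the start. Capitals mark matches on either strand to 4 motifs that were searched for: the G-box CACGTG, the I-box GATAAG, the letters CCAATC and the evening element AAAATATCT. The *LHCB1.4* window is at chr2:14524357-14524606, that of *LHCB1.5* at chr2:14523569-14523818, that of *LHCB4.2* at chr3:2717307-2717556 on the plus strand, and that of *LHCB6* at chr1:5447881-5448130 on the minus strand.
LHCB1.4: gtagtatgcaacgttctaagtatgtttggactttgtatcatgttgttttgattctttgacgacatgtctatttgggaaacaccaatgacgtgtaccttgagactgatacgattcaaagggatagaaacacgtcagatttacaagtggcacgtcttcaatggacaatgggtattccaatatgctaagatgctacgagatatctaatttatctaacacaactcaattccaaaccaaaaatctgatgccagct
LHCB1.5: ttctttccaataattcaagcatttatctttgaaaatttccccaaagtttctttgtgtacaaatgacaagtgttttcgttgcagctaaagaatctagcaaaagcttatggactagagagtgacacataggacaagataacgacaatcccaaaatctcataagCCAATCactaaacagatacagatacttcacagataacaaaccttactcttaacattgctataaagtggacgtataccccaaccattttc
LHCB4.2: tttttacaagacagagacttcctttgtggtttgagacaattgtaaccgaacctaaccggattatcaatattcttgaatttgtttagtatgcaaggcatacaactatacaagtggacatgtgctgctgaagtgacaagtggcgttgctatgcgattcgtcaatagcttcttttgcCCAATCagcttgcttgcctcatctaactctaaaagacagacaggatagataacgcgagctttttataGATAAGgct
LHCB6: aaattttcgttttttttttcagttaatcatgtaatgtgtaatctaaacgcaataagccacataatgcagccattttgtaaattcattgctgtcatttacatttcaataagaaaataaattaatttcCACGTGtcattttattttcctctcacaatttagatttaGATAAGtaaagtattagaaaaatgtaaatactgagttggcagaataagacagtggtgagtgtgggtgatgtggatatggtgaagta

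The *LHCB1.5* window held CCAATC, first base at -89 from the start, and the *LHCB1.4* window held none of the 4 motifs. The *LHCB4.2* window held CCAATC at -76 and the I-box at -9, and the *LHCB6* window held the G-box at -124 and the I-box at -86. Over the 44 members, CCAATC was found in 25.0% of the windows and in 10.4% of those of 23943 nuclear protein-coding genes. It was in 10 of 21 antenna windows, 0 of 12 PSI windows and 1 of 11 PSII windows. The G-box was in 22.7% of the members' windows against 7.05% of all windows, and the I-box in 20.5% against 12.4%. The evening element, the letters bound by morning clock proteins, was in 1 member window, that of *LHCA5*, which is 2.27% against 2.43% of all windows. A match is a description of the letters and was not tested as a binding site.

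**Figure D1:**
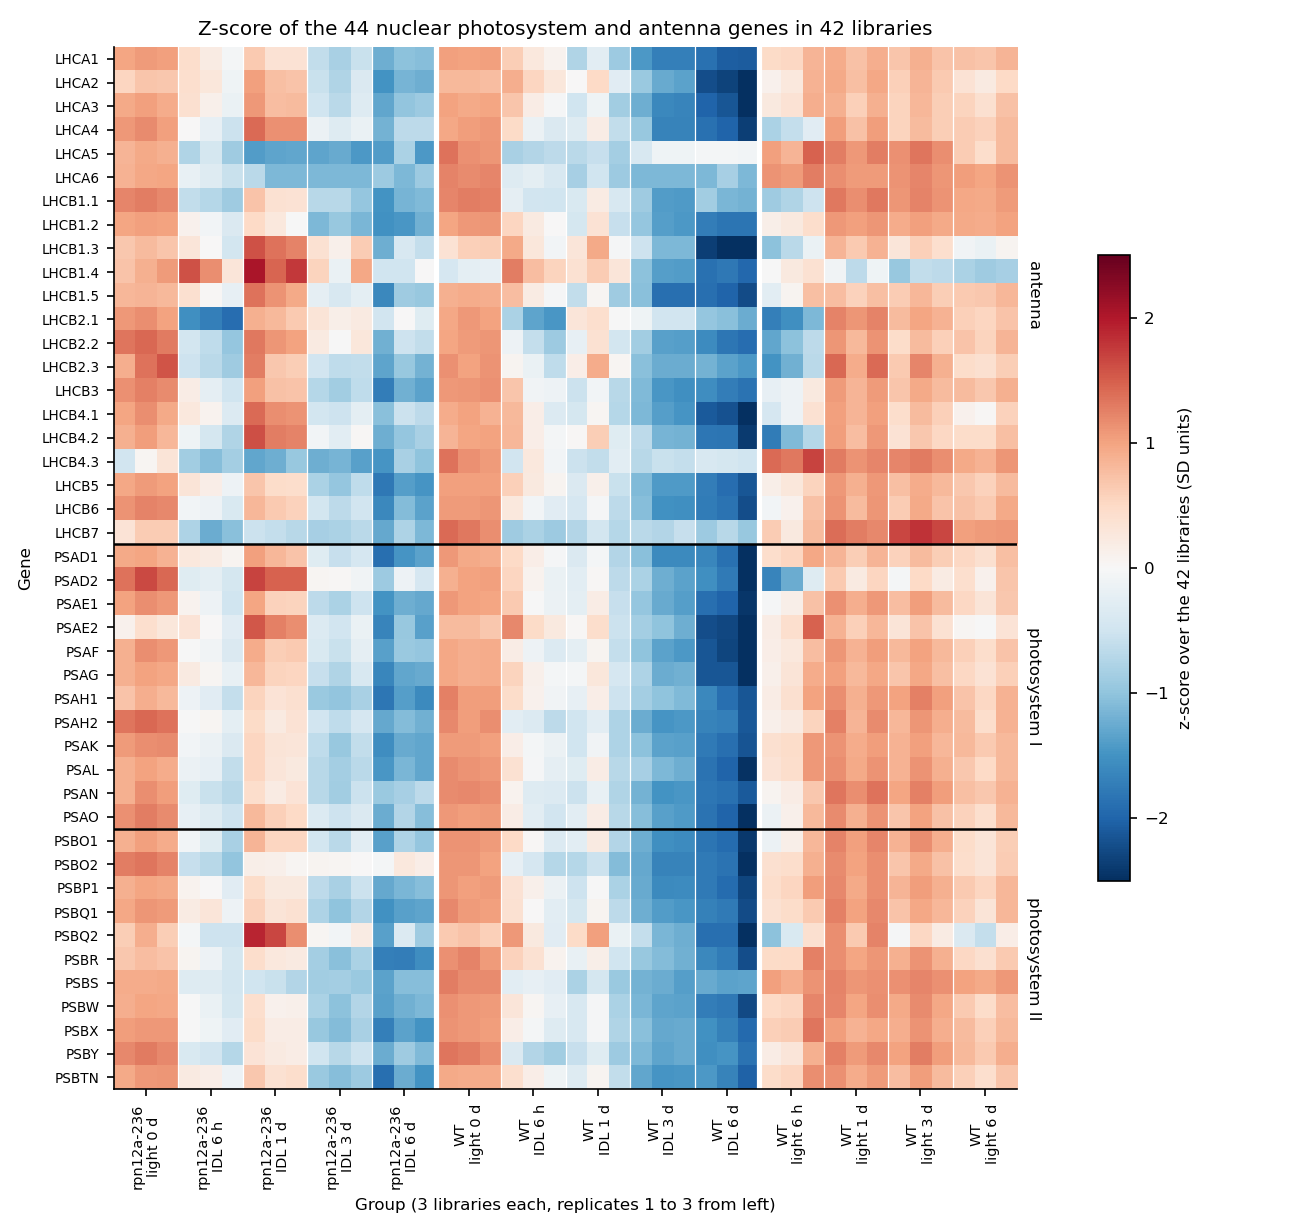
Heat map of the z-score (SD units over the 42 libraries) of the 44 genes, in rows by class, in each library, in columns by group with replicates 1 to 3 from the left. Darkened leaves at 6 d are blue for nearly all genes, *rpn12a-236* IDLs at 1 d are mostly red, and *LHCA5* and *LHCB1.4* break the pattern.

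Against light leaves of the same time, all 44 genes were lower in WT IDLs at 6 d, when 25.0% of all genes tested were called lower. The median difference was -2.55 over the members and -0.04 over all genes tested. It was -2.56 for the antenna, -2.64 for PSI and -2.45 for PSII, and differences between classes were not tested. At 3 d, 42 members were lower (24.7% of all genes), with a median of -2.14, and the others were *LHCB1.4* and *PSBQ2*, at -0.53 ± 0.19 and -1.22 ± 0.39 (SE, with limma adjusted p of 0.0248 and 0.0112). At 1 d, 38 members were lower (22.3% of all genes), with a median of -1.33.

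Of the PSI antenna, *LHCA2* was at -2.22, -2.31 and -2.84 in WT IDLs and at 0.36, 0.23 and 0.49 in WT light leaves at 6 d, a difference of -2.82 ± 0.23 (SE, with a limma adjusted p of 1.1e-09). Another LHCI gene, *LHCA3*, was at -2.01, -2.13 and -2.49 in IDLs and at 0.56, 0.40 and 0.74 in light leaves, a difference of -2.78 ± 0.22. *LHCA1* was at -1.87, -2.05 and -2.09 in IDLs and at 0.74, 0.69 and 0.85 in light leaves, a difference of -2.76 ± 0.17. For each of these 3 genes every IDL library lay below every light library by more than 1 SD of the gene.

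Among the PSI subunits the widest difference was in *PSAF* (AT1G31330), whose protein docks plastocyanin at the lumen side. *PSAF* was at -2.13, -2.30 and -2.61 in WT IDLs and at 0.59, 0.45 and 0.71 in light leaves at 6 d, a difference of -2.93 ± 0.20 (SE, with a limma adjusted p of 9.5e-11). *PSAG*, whose protein helps to bind the antenna to PSI, was at -2.13, -2.13 and -2.76 in IDLs and at 0.51, 0.37 and 0.59 in light leaves, a difference of -2.83 ± 0.23. *PSAO*, a small subunit on the side where LHCII docks, was at -1.85, -2.00 and -2.66 in IDLs and at 0.58, 0.42 and 0.82 in light leaves, a difference of -2.78 ± 0.26. The groups did not overlap for these genes, and the third IDL library was the lowest of the 3 for each of them.

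The PSI members with the smallest differences at 6 d encode the second copies of the stromal subunits that receive ferredoxin. *PSAD2* was at -1.53, -1.76 and -2.58 in WT IDLs and at 0.42, 0.11 and 0.69 in light leaves, a difference of -2.36 ± 0.31, and *PSAE2* at -2.21, -2.27 and -2.66 in IDLs and 0.048, -0.012 and 0.34 in light leaves, a difference of -2.5 ± 0.29 (SE). Both were called lower, and their libraries did not overlap between the groups.

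Of the PSII genes, *PSBP1*, which encodes an extrinsic protein of the oxygen-evolving complex, was at -1.76, -1.93 and -2.30 in WT IDLs and at 0.66, 0.53 and 0.82 in light leaves at 6 d, a difference of -2.67 ± 0.21 (SE, with a limma adjusted p of 5.6e-10). *PSBW*, a small subunit known to hold PSII supercomplexes together, was at -1.72, -1.79 and -2.26 in IDLs and at 0.66, 0.47 and 0.77 in light leaves, a difference of -2.55 ± 0.21. *PSBQ2* encodes another extrinsic protein and had the smallest difference of the class. It was at -1.88, -1.88 and -2.93 in IDLs and at -0.36, -0.59 and 0.16 in light leaves, a difference of -1.97 ± 0.39 (SE, with a limma adjusted p of 1.8e-04). *PSBTN*, which encodes a small lumenal subunit, was at -1.44, -1.67 and -2.02 in IDLs and at 0.59, 0.42 and 0.70 in light leaves, a difference of -2.29 ± 0.21. No PSII gene named here had an IDL library as high as a light library at 6 d.

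The smallest differences of the whole set at 6 d were in *LHCA5* and *LHCB1.4*. *LHCA5* (AT1G45474, chr1:17179250-17180806), whose protein joins PSI to the chloroplast NADH dehydrogenase-like complex, was at -0.057, -0.041 and -0.078 in WT IDLs and at 0.64, 0.44 and 0.79 in light leaves, a difference of -0.68 ± 0.16 (SE, with a limma adjusted p of 0.001). *LHCB1.4*, an LHCII gene, was at -1.87, -1.80 and -1.97 in IDLs and at -0.80, -0.89 and -0.83 in light leaves, a difference of -1.04 ± 0.19 (SE, with a limma adjusted p of 9.2e-05). Both were lower in every IDL library, and for *LHCB1.4* the light leaves were themselves below the gene's mean.

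The members reached this state at unequal pace. Of each gene's own difference at 6 d, the median member had reached 10.4% at 6 h, 51.3% at 1 d and 81.6% at 3 d. The PSII median was 24.3% at 6 h and the PSI median 16.7%, while the antenna median was -5.67%, that is, slightly on the opposite side. These shares at 6 h also carry a change in the light leaves. In WT light leaves at 6 h, 17 members were lower than in WT light leaves at the start, as given below. Against those starting leaves, 29 members were lower in WT IDLs at 6 h. By 3 d the medians were 80.9% for the antenna, 77.3% for PSI and 90.1% for PSII.

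At 6 h, WT IDLs differed in both directions from WT light leaves harvested at that hour. There 11 of the 44 genes were lower in IDLs, when 18.4% of all genes tested were, and 5 were higher, when 18.1% of all genes were, so that the members were called in either direction about as often as all genes. The median difference was 0.16 in the antenna, -0.45 in PSI and -0.57 in PSII. None of the 9 LHCII genes was lower and 3 were higher, while 2 of the 6 genes of LHCB4 to LHCB7 (*LHCB4.3* and *LHCB7*), 2 of the 6 LHCA genes (*LHCA5* and *LHCA6*), 2 of 12 PSI genes and 5 of 11 PSII genes were lower. None of *LHCA1* to *LHCA4* was called. With these 6 libraries fitted alone, 2 genes were called lower.

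The 5 genes that were higher in IDLs than in light leaves at 6 h were *LHCB1.3*, *LHCB1.4*, *LHCB2.3*, *LHCB4.2* and *PSAD2*. *LHCB4.2* was at 0.82, 0.17 and -0.043 in WT IDLs and at -1.75, -1.1 and -0.71 in WT light leaves at 6 h, a difference of 1.5 ± 0.27 (SE, with a limma adjusted p of 1.1e-04). *PSAD2* was at 0.54, 0.084 and -0.16 in IDLs and at -1.65, -1.23 and -0.31 in light leaves, a difference of 1.22 ± 0.31 (SE, with a limma adjusted p of 0.00276). Every IDL library lay above every light library for both genes. Against WT light leaves at 0 d, the IDLs at 6 h differed by -0.63 ± 0.28 in *LHCB4.2* and -0.82 ± 0.29 in *PSAD2* (SE), and neither was called.

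*LHCB1.3*, an LHCII gene, was at 0.96, 0.27 and -0.077 in WT IDLs and at -1.03, -0.68 and -0.16 in light leaves at 6 h, a difference of 1.01 ± 0.27 (SE, with a limma adjusted p of 0.00427). *LHCB2.3* was at 0.061, -0.17 and -0.63 in IDLs and at -1.49, -1.21 and -0.68 in light leaves, a difference of 0.88 ± 0.24 (SE, with a limma adjusted p of 0.00501). *LHCB1.4* was at 1.28, 0.77 and 0.55 in IDLs and at -0.00091, 0.24 and 0.38 in light leaves, a difference of 0.66 ± 0.19 (SE, with a limma adjusted p of 0.00772). The groups did not overlap for these 3 genes. Of the LHCB1 and LHCB2 genes, 7 had more than 5% of their 31-base words in common with other members, from 23.5% in *LHCB1.4* to 39.4% in *LHCB2.2*, so that reads of these close copies could be split between them and their separate values are uncertain.

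The 11 genes that were lower at 6 h were *LHCA5*, *LHCA6*, *LHCB4.3*, *LHCB7*, *PSAH2*, *PSAK*, *PSBO2*, *PSBS*, *PSBW*, *PSBX* and *PSBY*. *LHCA5* was at -0.81, -0.74 and -0.65 in WT IDLs and at 1.02, 0.85 and 1.48 in light leaves, a difference of -1.85 ± 0.16 (SE, with a limma adjusted p of 1.3e-08). *LHCB4.3*, a form of the minor antenna CP29 known for its response to high light, was at -0.47, 0.26 and -0.069 in IDLs and at 1.42, 1.32 and 1.69 in light leaves, a difference of -1.57 ± 0.17 (SE, with a limma adjusted p of 1.5e-07). *PSBS* encodes the PSII protein that triggers the release of excess energy as heat. It was at -0.26, -0.21 and -0.28 in IDLs and at 1.02, 0.91 and 1.12 in light leaves, a difference of -1.27 ± 0.13 (SE, with a limma adjusted p of 1.0e-07). *PSBO2* (AT3G50820), whose protein stabilises the manganese cluster of the oxygen-evolving complex, was at -0.21, -0.41 and -0.72 in IDLs and at 0.41, 0.43 and 0.90 in light leaves, a difference of -1.03 ± 0.21 (SE, with a limma adjusted p of 4.2e-04). The groups did not overlap for *LHCA5*, *LHCB4.3*, *PSBS* or *PSBO2*.

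**Figure D2:**
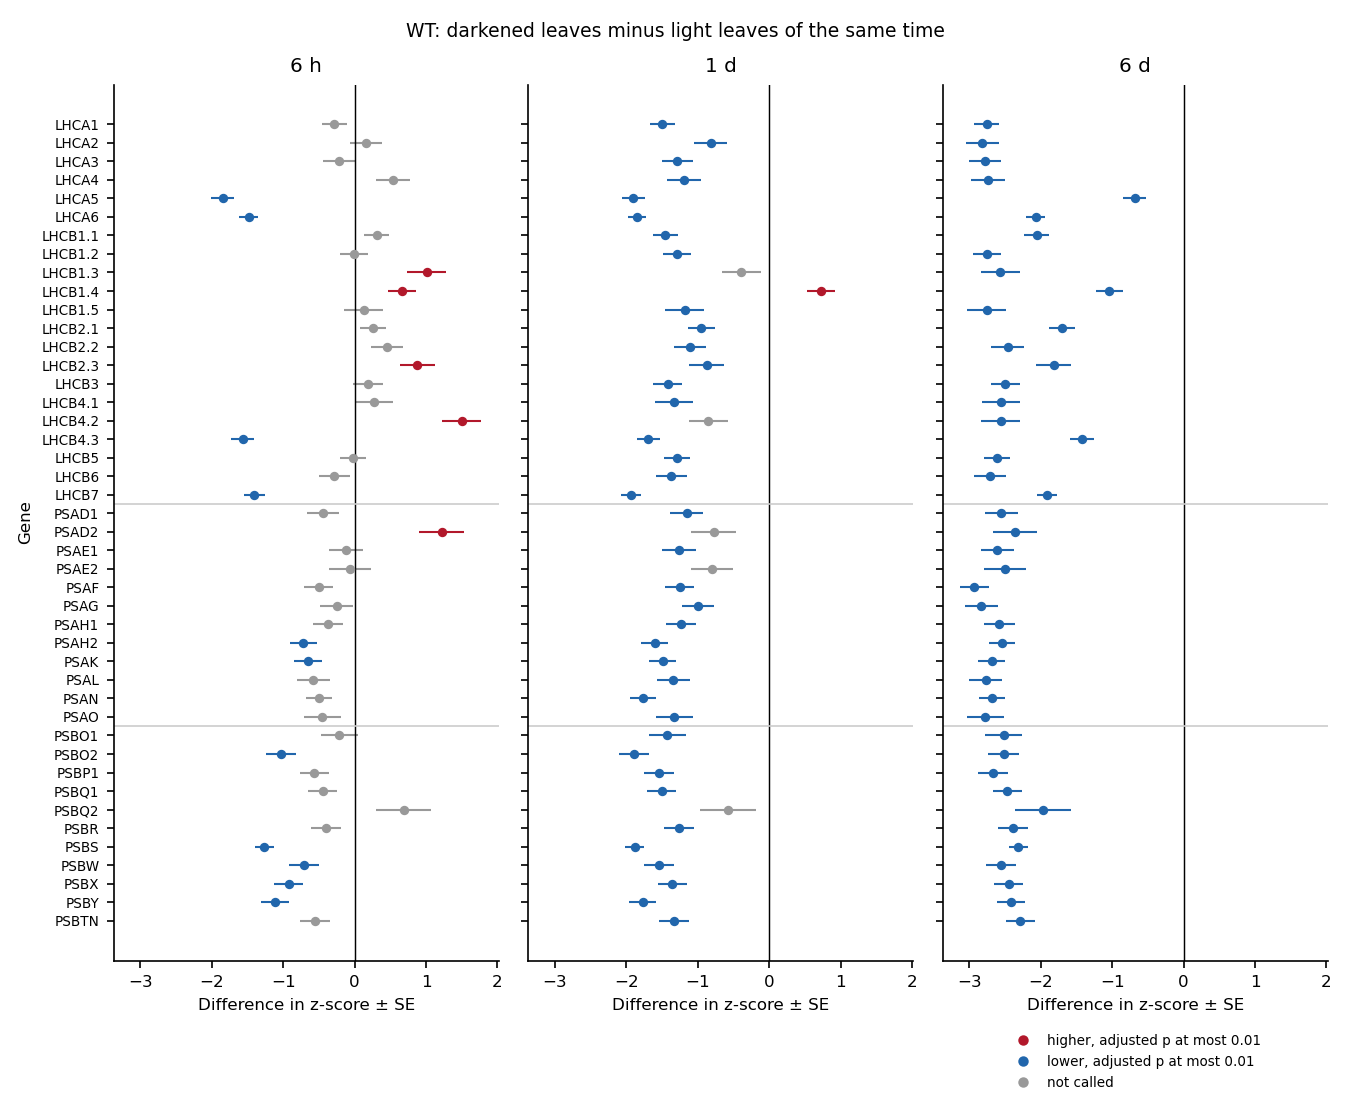
Difference in z-score, WT IDLs minus WT light leaves at 1 time point (x axis, SD units) for each of the 44 genes at 6 h, 1 d and 6 d, with bars of ± SE, red for higher, blue for lower and grey for not called. At 6 h the genes lie on both sides of 0, and at 6 d all 44 lie below it.

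Values at 6 h stand beside a change in the light leaves themselves. In WT light leaves at 6 h, harvested in the afternoon, 17 members were lower than in light leaves at 0 d, harvested in the morning, when 11.8% of all genes were lower. They were 13 of the 21 antenna genes, including 7 of 9 LHCII genes and 5 of the 6 genes of LHCB4 to LHCB7, 3 of the 12 PSI genes and 1 of the 11 PSII genes. *LHCB2.1* was at -1.70, -1.52 and -1.12 in light leaves at 6 h and at 0.96, 1.08 and 1.01 at 0 d, a difference of -2.47 ± 0.16 (SE, with a limma adjusted p of 4.7e-07). *LHCB4.2* was at -1.75, -1.1 and -0.71 at 6 h and at 0.85, 0.98 and 1.0 at 0 d, a difference of -2.13 ± 0.23, and *PSAD2* differed by -2.03 ± 0.30. Of the 5 genes higher in IDLs than in light leaves at 6 h, *LHCB1.4* was the exception in not being lower in light leaves at 6 h than at 0 d. In the mean over all members the light libraries at 6 h stood at -0.02, 0.12 and 0.63. Without the third of them 35 members were called in either direction, and without the first light library at 0 d 11 were.

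In the light at the same morning hour, no member was called at 1 d, 3 d or 6 d against 0 d. By limma 2.04% of all genes were called at 1 d, 0.379% at 3 d and 0.0435% at 6 d in either direction. At an unadjusted p under 0.05 0 members stood at 1 d, beside 20.4% of all genes, 5 at 3 d, beside 16.4%, and 25 at 6 d, beside 21.0%. All 44 differences were negative after 6 d, with a median of -0.42.

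At 1 d in darkness, *LHCB1.4* was the 1 member that was higher in WT IDLs than in light leaves of the same time (18.7% of all genes were higher). It was at 0.37, 0.64 and 0.31 in IDLs and at -0.083, -0.66 and -0.10 in light leaves, a difference of 0.72 ± 0.19 (SE, with a limma adjusted p of 0.0035). Its neighbour *LHCB1.5* was at -0.61, 0.046 and -0.88 in IDLs and at 0.77, 0.58 and 0.74 in light leaves, a difference of -1.18 ± 0.27 (SE, with a limma adjusted p of 9.3e-04). The 5 members that were not called at 1 d were *LHCB1.3*, *LHCB4.2*, *PSAD2*, *PSAE2* and *PSBQ2*, with differences of -0.39, -0.85, -0.78, -0.79 and -0.57. Of these, *LHCB1.3*, *LHCB4.2* and *PSAD2* had been higher in IDLs than in light leaves at 6 h.

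The same genes were followed in each genotype against its own light leaves at 0 d. In *rpn12a-236* IDLs, 39 members were lower after 6 h (17.1% of all genes were lower), 16 after 1 d (21.8%), 40 after 3 d (23.9%) and all 44 after 6 d (26.1%). In WT, 29 were lower after 6 h (21.4%), 37 after 1 d (23.1%), 44 after 3 d (26.0%) and 44 after 6 d (27.8%). The medians were -1.23, -0.45, -1.61 and -2.13 in *rpn12a-236* and -1.04, -1.36, -2.31 and -2.98 in WT. The mutant count at 1 d was 9 without *rpn12a-236* IDL 1 d replicate 2 or 3 and 10 without *rpn12a-236* light 0 d replicate 2 or 3.

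The mean over all members shows the course in each library. In *rpn12a-236* it was 0.90, 1.05 and 0.98 in the light at 0 d, then -0.06, -0.22 and -0.49 after 6 h, 0.72, 0.48 and 0.45 after 1 d, -0.51, -0.66 and -0.46 after 3 d and -1.34, -0.94 and -1.03 after 6 d of darkness. In WT it was 1.03, 1.01 and 0.99 in the light at 0 d, then 0.31, -0.04 and -0.27 after 6 h, -0.32, 0.09 and -0.59 after 1 d, -0.97, -1.28 and -1.31 after 3 d and -1.63, -1.73 and -2.08 after 6 d of darkness. The *rpn12a-236* libraries lay within or near the WT range at 6 h, and above all WT IDL libraries at 1 d, 3 d and 6 d.

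Between 6 h and 1 d of darkness the group means of 40 of the 44 genes were higher at the later time in *rpn12a-236*, with a median step of 0.76 and a range of -0.64 to 2.5. In WT IDLs 9 of the 44 were higher, with a median step of -0.36. Between 1 d and 3 d all 44 genes were lower in *rpn12a-236*, with a median step of -1.22, and 43 in WT, with a median of -1.0. These steps are differences of group means with no test, and the first of them also spans an afternoon and a morning harvest.

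**Figure D3:**
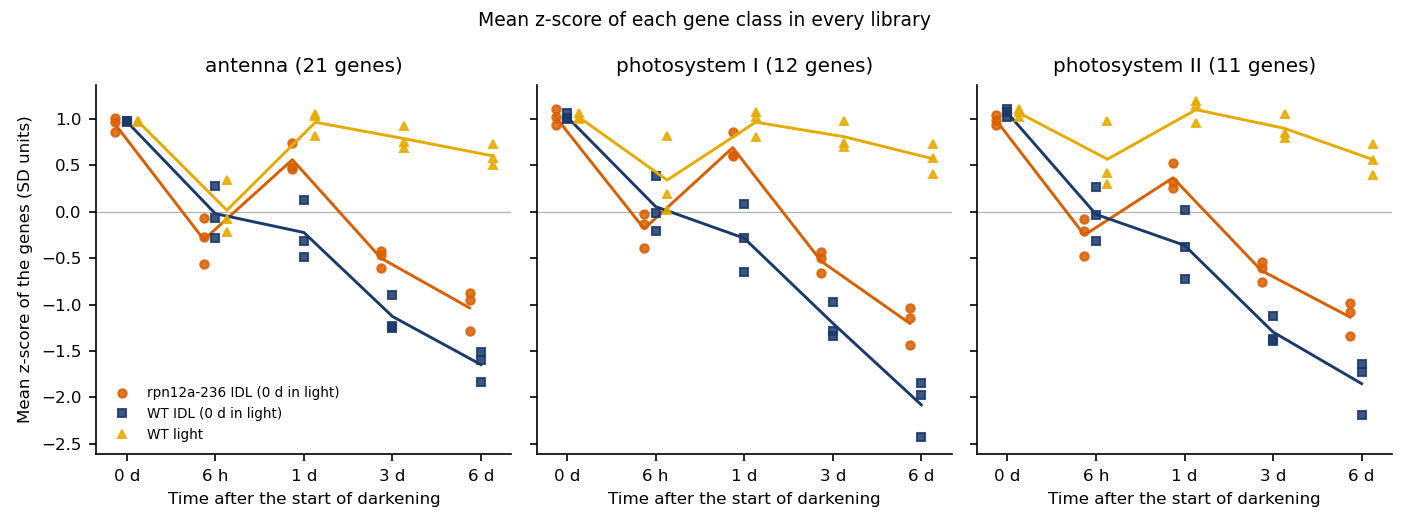
Mean z-score (y axis, SD units) over the antenna, PSI and PSII genes in each library against the time after the start of darkening, with orange circles for *rpn12a-236* IDLs, blue squares for WT IDLs and yellow triangles for WT light leaves, and lines through the group means. The *rpn12a-236* points at 1 d stand above those at 6 h in each class, while the WT IDL points of these times overlap.

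The mutant counts at 1 d by role were unequal, and this difference was not tested. There 2 of 6 LHCA genes (*LHCA5* and *LHCA6*), 2 of 9 LHCII genes, 2 of the 6 genes of LHCB4 to LHCB7 (*LHCB4.3* and *LHCB7*) and 3 of 12 PSI genes were lower than in *rpn12a-236* light leaves at 0 d, against 3 of 5 oxygen-evolving complex genes and 4 of 6 other PSII genes. *PSAE2*, whose protein lines the ferredoxin side of PSI, was higher (19.1% of all genes were higher). *PSAE2* was at 1.56, 1.25 and 1.17 in *rpn12a-236* IDLs at 1 d and at 0.10, 0.41 and 0.28 in its light leaves at 0 d, a difference of 1.06 ± 0.23 (SE, with a limma adjusted p of 0.00164). In WT, the 1 member higher than at 0 d was *LHCB1.4*, at 6 h (19.9% of all genes were higher) and at 1 d (21.4%). It stood at -0.42, -0.24 and -0.20 in WT light leaves at 0 d, against which it differed by 1.16 ± 0.20 (SE, with a limma adjusted p of 2.8e-04) at 6 h and 0.73 at 1 d.

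The difference between the genotypes in this response is the interaction of genotype and darkening, the *rpn12a-236* difference from its own 0 d minus that of WT. Later light leaves of *rpn12a-236* were not analysed. A genotype difference in the change with time in the light thus cannot be told apart from one in the response to darkness. At 6 h no member was called by limma (7.48% of all genes were, in either direction), 5 had an unadjusted p under 0.05 (28.1% of all genes had), and the median was -0.18. At 1 d 11 members were higher in *rpn12a-236* (6.29% of all genes were higher), with 43 of the 44 differences above 0 and a median of 0.85. The 11 were 7 antenna genes, 4 PSI genes and 0 PSII genes, and 11 PSII genes had an unadjusted p under 0.05, as had 34.3% of all genes. At 3 d 3 were higher (7.77% of all genes) and 1 lower (7.35%), and at 6 d 10 were higher (10.8% of all genes) and 1 lower (10.6%), with medians of 0.64 and 0.69.

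These counts rest on small margins. At 1 d the count of 11 was 3 without *rpn12a-236* IDL replicate 1 or WT IDL replicate 3, 5 without *rpn12a-236* light 0 d replicate 3, 6 without WT light 0 d replicate 1 or WT IDL replicate 1, 7 without *rpn12a-236* light 0 d replicate 1, *rpn12a-236* IDL replicate 3 or WT light 0 d replicate 2 or 3, and 24 without WT IDL replicate 2. At 3 d the count of 4 was 8 without WT IDL replicate 1, 2 without *rpn12a-236* IDL replicate 2 or WT light 0 d replicate 1, and 1 without any of the other 9 libraries. At 6 d the count of 11 was 7 without *rpn12a-236* light 0 d replicate 3, *rpn12a-236* IDL replicate 3 or WT IDL replicate 3.

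Among the antenna genes, *LHCB1.5* had the widest interaction at 1 d. It was at 1.35, 1.12 and 0.95 in *rpn12a-236* IDLs at 1 d and at 0.83, 0.85 and 0.82 in the mutant's light leaves at 0 d, and at -0.61, 0.046 and -0.88 in WT IDLs and 0.89, 0.94 and 0.90 in WT light leaves at 0 d, an interaction of 1.70 ± 0.37 (SE, with a limma adjusted p of 0.00186). At 3 d the interaction of *LHCB1.5* was 1.39 ± 0.37, from -0.22, -0.41 and -0.24 in *rpn12a-236* IDLs and -1.05, -1.88 and -1.88 in WT IDLs. The *rpn12a-236* libraries lay above the WT IDL libraries at both times.

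*LHCA1* was higher at 1 d, 3 d and 6 d by the interaction, with 1.09, 0.95 and 0.89. It was at 0.65, 0.35 and 0.36 in *rpn12a-236* IDLs and -0.75, -0.26 and -0.90 in WT IDLs at 1 d, and at -1.23, -1.03 and -1.07 in *rpn12a-236* IDLs and -1.87, -2.05 and -2.09 in WT IDLs at 6 d. *LHCA3* was at 1.09, 0.76 and 0.80 in *rpn12a-236* IDLs and -0.50, -0.11 and -0.87 in WT IDLs at 1 d, with an interaction of 1.39 ± 0.30 (SE, with a limma adjusted p of 0.0018). For both LHCI genes the genotypes did not overlap in darkness at 1 d or 6 d.

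*LHCB1.3* was called at 6 d and not at 1 d. It was at -1.23, -0.41 and -0.60 in *rpn12a-236* IDLs and at -2.36, -2.60 and -2.93 in WT IDLs at 6 d, with an interaction of 1.69 ± 0.40 (SE, with a limma adjusted p of 0.00221). *LHCA2* was at -1.5, -1.16 and -1.23 in *rpn12a-236* IDLs and -2.22, -2.31 and -2.84 in WT IDLs at 6 d, with an interaction of 1.32 ± 0.30. *LHCB4.2* was called at 1 d, at 1.61, 1.28 and 1.24 in *rpn12a-236* IDLs and 0.033, 0.61 and -0.30 in WT IDLs, with an interaction of 1.29 ± 0.35 (SE, with a limma adjusted p of 0.00934).

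Of the PSI genes, *PSAE2* had an interaction of 1.84 ± 0.36 (SE, with a limma adjusted p of 7.2e-04) at 1 d and of 1.55 ± 0.36 at 6 d. In WT IDLs it was at 0.024, 0.44 and -0.54 at 1 d, against which all *rpn12a-236* libraries were higher. *PSAD2* was at 1.69, 1.48 and 1.48 in *rpn12a-236* IDLs and at -0.27, 0.031 and -0.66 in WT IDLs at 1 d, with an interaction of 1.33 ± 0.35 (SE, with a limma adjusted p of 0.00762). *PSAF* was called at 6 d, at -1.35, -0.92 and -0.96 in *rpn12a-236* IDLs and -2.13, -2.30 and -2.61 in WT IDLs, with an interaction of 1.16 ± 0.27 (SE, with a limma adjusted p of 0.0022). *PSAG*, at -1.64, -1.30 and -1.26 in *rpn12a-236* IDLs and -2.13, -2.13 and -2.76 in WT IDLs, had 0.92 and was not called.

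**Figure D4:**
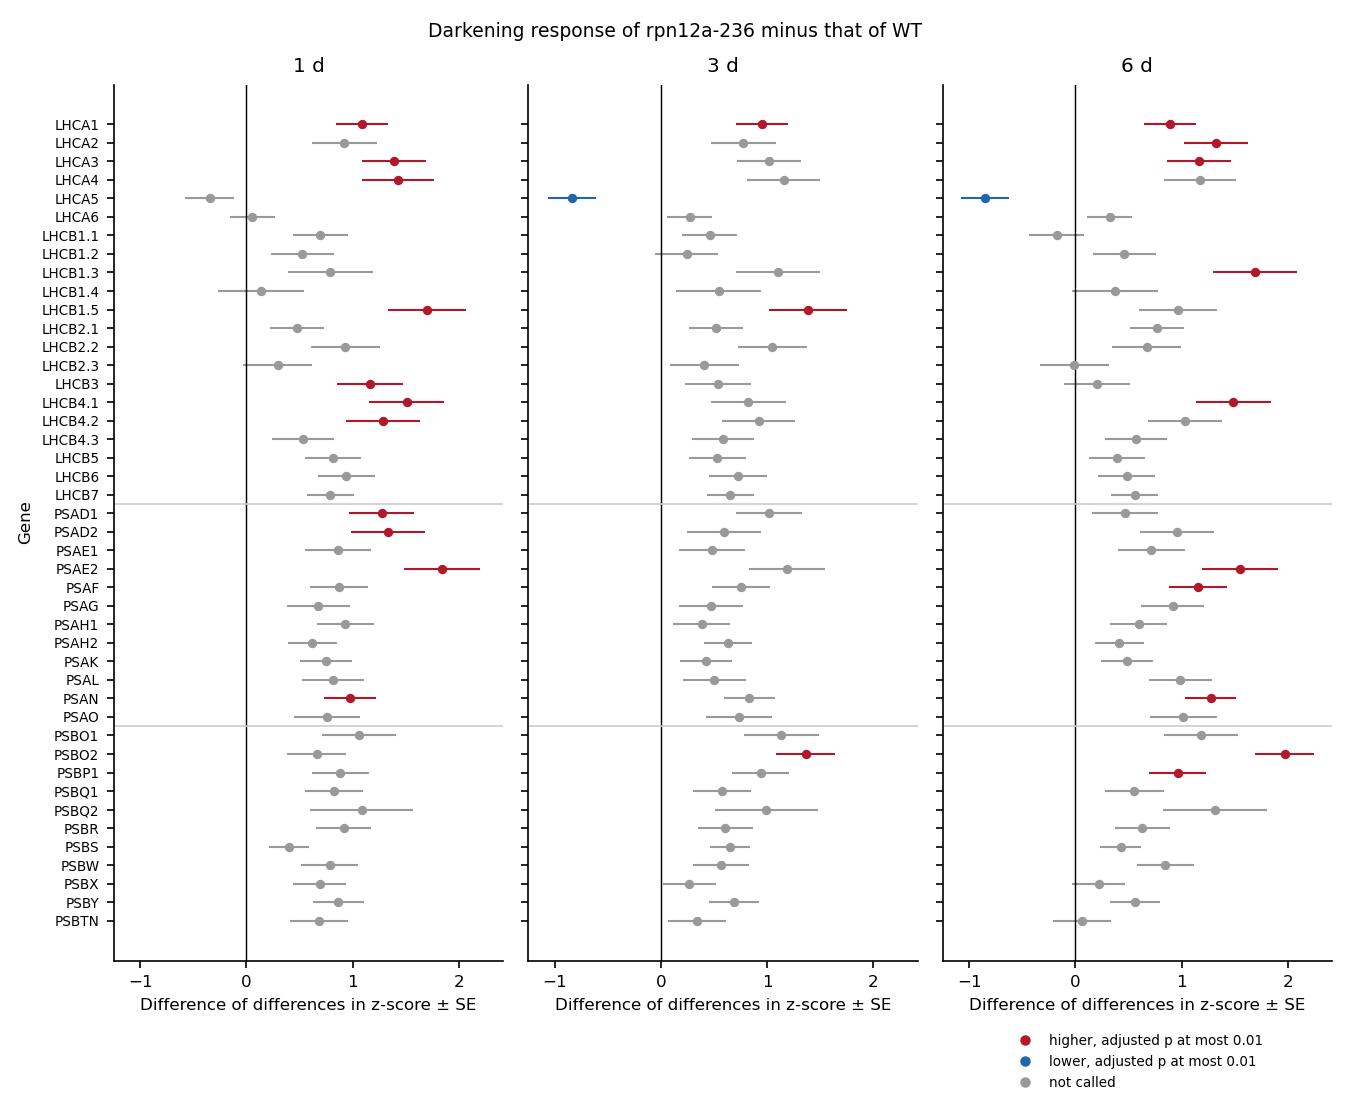
Interaction of genotype and darkening in z-score (x axis, SD units, *rpn12a-236* response minus WT response) for each of the 44 genes at 1 d, 3 d and 6 d, with bars of ± SE, red for higher, blue for lower and grey for not called. Most points lie right of 0 at each time, *PSBO2* lies farthest right at 6 d, and *LHCA5* is the called gene on the left at 3 d and 6 d.

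*PSBO2* had the widest interaction of the set at 6 d. In *rpn12a-236* it was at 1.28, 1.35 and 1.25 in the light at 0 d and at -0.58, -0.69 and -0.99 after 6 h, 0.16, 0.13 and 0.039 after 1 d, 0.073, 0.044 and 0.017 after 3 d and -0.041, 0.27 and 0.17 after 6 d of darkness. In WT it was at 1.1, 1.11 and 1.0 in the light at 0 d and at -0.21, -0.41 and -0.72 after 6 h, -0.71, -0.55 and -1.08 after 1 d, -1.28, -1.68 and -1.67 after 3 d and -1.77, -1.84 and -2.58 after 6 d of darkness. The mutant libraries thus lay near the gene's mean at the last 3 times. The mean of the WT libraries was lower at each later time, though those at 6 h and 1 d overlapped.

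The interaction of *PSBO2* was 1.36 ± 0.28 (SE, with a limma adjusted p of 8.9e-04) at 3 d and 1.97 ± 0.28 (SE, with a limma adjusted p of 1.0e-05) at 6 d. The other manganese-stabilising gene, *PSBO1*, had interactions of 1.135 ± 0.35 and 1.18 ± 0.35 (SE) at those times and was not called, and the difference between both genes was not tested. *PSBP1* was called at 6 d, at -1.28, -1.15 and -1.06 in *rpn12a-236* IDLs and -1.76, -1.93 and -2.30 in WT IDLs, with an interaction of 0.96 ± 0.27 (SE, with a limma adjusted p of 0.00747). Neither *PSBW*, with 0.85, nor *PSBTN*, with 0.065, was called at 6 d.

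*LHCA5* went the other way. It was at 0.86, 0.95 and 0.89 in *rpn12a-236* light leaves at 0 d and at -0.75, -0.44 and -0.90 after 6 h, -1.39, -1.31 and -1.30 after 1 d, -1.31, -1.27 and -1.43 after 3 d and -1.39, -0.79 and -1.44 after 6 d of darkness. In WT it was at 1.35, 1.13 and 1.1 in the light at 0 d and at -0.81, -0.74 and -0.65 after 6 h, -0.67, -0.57 and -0.84 after 1 d, -0.40, -0.10 and -0.11 after 3 d and -0.057, -0.041 and -0.078 after 6 d of darkness. In WT the gene was thus lowest at the first times and nearer its mean later, and in *rpn12a-236* it stayed low.

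The interaction of *LHCA5* was -0.84 ± 0.23 (SE, with a limma adjusted p of 0.00951) at 3 d and -0.85 ± 0.23 (SE, with a limma adjusted p of 0.00633) at 6 d. *LHCA6*, whose protein shares its place at the NADH dehydrogenase-like complex, was at the lowest value of the gene, -1.11, in all 6 IDL libraries at 3 d, which libraries of this gene share as a floor. Its difference between the genotypes could therefore not be read at that time.

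**Figure D5:**
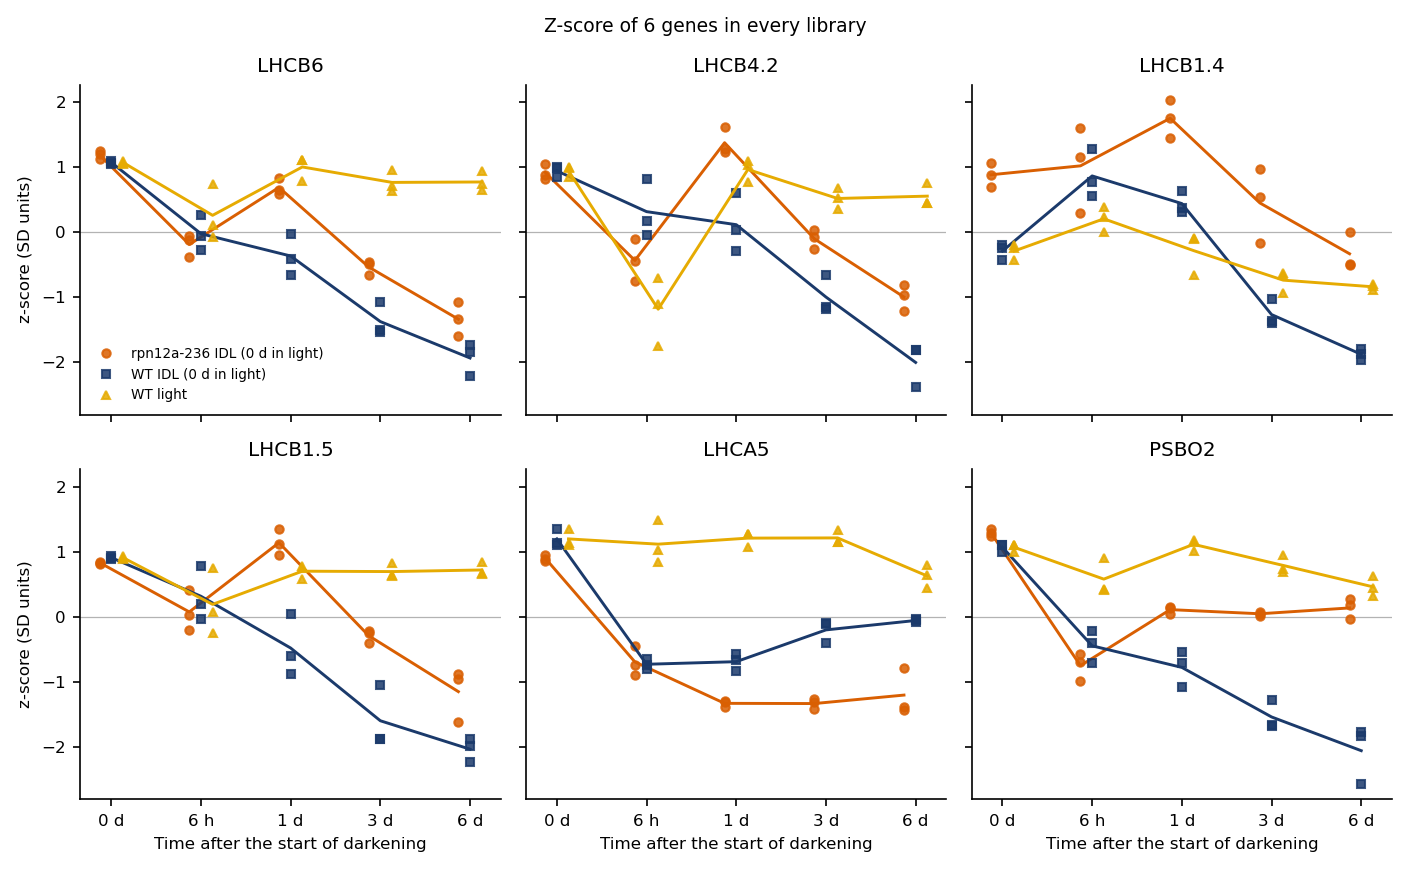
Z-score (y axis, SD units) of *LHCB6*, *LHCB4.2*, *LHCB1.4*, *LHCB1.5*, *LHCA5* and *PSBO2* in every library against the time after the start of darkening, with orange circles for *rpn12a-236* IDLs, blue squares for WT IDLs and yellow triangles for WT light leaves, and lines through the group means. *LHCB6* shows the common course, *PSBO2* levels off in *rpn12a-236* near 0, and *LHCA5* is lower in *rpn12a-236* than in WT IDLs at 1 d, 3 d and 6 d.

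Levels at 1 time point were also compared between the genotypes. In the light at 0 d, 1 member was higher and 2 lower in *rpn12a-236* (17.2% of all genes differed in either direction), and at 6 h of darkness *LHCB4.3* alone was lower (11.4% of all genes differed). At 1 d 30 members were higher in *rpn12a-236* (11.0% of all genes), at 3 d 20 (13.4%) and at 6 d 26 (17.2%), with medians of 0.84, 0.65 and 0.79. At each of these 3 times the 1 member lower in *rpn12a-236* was *LHCA5*, by -0.64, -1.13 and -1.15, when 11.4%, 14.2% and 17.9% of all genes were lower. The count of all members called at 1 d was 31, and it was 19 without *rpn12a-236* IDL replicate 1 or WT IDL replicate 3 and 20 without WT IDL replicate 1. At 6 d it was 27, and 17 without WT IDL replicate 3. At 6 h it was 0 without any 1 of the *rpn12a-236* IDL replicates or WT IDL replicate 2 or 3.

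The 3 members that differed before darkening were antenna genes. *LHCB1.4* was at 0.70, 0.88 and 1.07 in *rpn12a-236* and at -0.42, -0.24 and -0.20 in WT light leaves at 0 d, a difference of 1.17 ± 0.28 (SE, with a limma adjusted p of 0.00337). *LHCB4.3* was at -0.48, 0.055 and 0.33 in *rpn12a-236* and at 1.35, 1.15 and 1.06 in WT, a difference of -1.22 ± 0.21 (SE, with a limma adjusted p of 1.1e-04). *LHCB7* was at 0.33, 0.64 and 0.63 in *rpn12a-236* and at 1.42, 1.31 and 1.16 in WT, a difference of -0.76 ± 0.16 (SE, with a limma adjusted p of 7.9e-04). In each the libraries of the genotypes did not overlap.

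*LHCB1.4* overlapped between the genotypes at 6 h of darkness and was higher in *rpn12a-236* afterwards, at 2.04, 1.45 and 1.76 in *rpn12a-236* IDLs and 0.37, 0.64 and 0.31 in WT IDLs at 1 d, and at 0.55, -0.16 and 0.97 in *rpn12a-236* IDLs and -1.03, -1.37 and -1.40 in WT IDLs at 3 d. At 6 d it was at -0.49, -0.51 and 0.0028 in *rpn12a-236* IDLs and at -1.87, -1.80 and -1.97 in WT IDLs, a difference of 1.55 ± 0.28 (SE, with a limma adjusted p of 9.9e-05). Its interaction was 0.14, 0.54 and 0.37 at 1 d, 3 d and 6 d and was not called.

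*LHCB6*, which encodes the minor antenna CP24, shows the common course in each library. It was at 1.12, 1.25 and 1.2 in *rpn12a-236* light leaves at 0 d and at -0.06, -0.12 and -0.38 after 6 h, 0.84, 0.65 and 0.58 after 1 d, -0.46, -0.66 and -0.49 after 3 d and -1.60, -1.08 and -1.33 after 6 d of darkness. In WT IDLs it was at 0.27, -0.061 and -0.27 after 6 h, -0.41, -0.023 and -0.66 after 1 d, -1.07, -1.51 and -1.54 after 3 d and -1.74, -1.85 and -2.22 after 6 d, and in WT light leaves at 0 d at 1.06, 1.07 and 1.1. The genotypes overlapped at 6 h and did not overlap at 1 d, 3 d or 6 d.

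Likeness to the rest was measured as Pearson's r of a gene with the mean of the other 43 members over the 42 libraries, as a description, since the libraries share their conditions. It was highest for *LHCB6*, at 0.995, and lowest for *LHCB1.4*, at 0.41, followed by *LHCA5* at 0.56, *LHCB4.3* at 0.59 and *LHCB2.1* at 0.61. Within the 15 WT light libraries *LHCB1.4* had an r of -0.21 and *LHCB4.3* one of -0.13. The antenna thus held both the member most like the others and the 4 least like them.

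Genes that work beside the photosystems were counted in the same way. Of all genes tested, 18.4%, 22.3%, 24.7% and 25.0% were lower in WT IDLs at 6 h, 1 d, 3 d and 6 d, and 18.1% were higher at 6 h. Of 11 genes for electron transport and ATP synthase, 10 were lower in WT IDLs than in WT light leaves at 6 h, with a median of -1.36, and all 11 were lower at 1 d, 3 d and 6 d. Of 6 genes for light-harvesting-like proteins, which bind chlorophyll under stress or during assembly, 5 were lower at 6 h and 6 at the later times. Of 9 genes for antenna insertion and regulation, 4 were lower and 1 higher at 6 h, and 8 were lower at each later time. At 6 h these lists were thus called lower in 10 of 11, 5 of 6 and 4 of 9 genes, beside 11 of the 44 photosystem and antenna genes, and the difference between the lists was not tested.

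Within the electron transport list the widest differences at 6 d of darkness were in *PETE1* and *PETE2*, which encode plastocyanin, and in *PETM*, a small subunit of the cytochrome complex. They were -3.10, -2.71 and -2.66 between WT IDLs and WT light leaves. *CPSRP43*, a chaperone for antenna proteins, differed by -2.80, the PSII kinase gene *STN8* by -2.64, and *ALB3*, which encodes the thylakoid insertase, by -1.81. The light-harvesting-like genes *LIL3:2*, *OHP1* and *LIL3:1* differed by -2.81, -2.52 and -2.00. All 9 were called lower.

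By the interaction of genotype and darkening at 6 d, 4 of the 11 electron transport genes, 3 of the 9 insertion and regulation genes and 3 of the 6 light-harvesting-like genes were higher. Of all genes tested, 10.8% were higher and 10.6% lower. The 1 gene of these lists that was lower was *GLK1*, which encodes a transcription factor that activates photosynthesis genes, at -1.07 ± 0.28 (SE, with a limma adjusted p of 0.00462). Of the genes named above, the interaction was higher for *PETE1*, at 1.98 ± 0.34 (SE, with a limma adjusted p of 1.1e-04), and for *ALB3*, at 2.44 ± 0.45 (SE, with a limma adjusted p of 2.1e-04). *PETM*, *STN8*, *OHP1* and *LIL3:2* were higher by 1.63, 1.72, 1.21 and 1.145. *PETE2*, *CPSRP43* and *LIL3:1*, with 0.63, 0.71 and 0.33, were not called. Also higher, and outside the genes named above, were *FD2*, *FNR1*, *CPSRP54* and *ELIP2*, by 1.23, 1.13, 2.32 and 1.18. In *rpn12a-236* at 1 d, 8 of the 11 electron transport genes and all 6 light-harvesting-like genes were lower than in its light leaves at 0 d. This stands beside 16 of the 44 photosystem and antenna genes and 21.8% of all genes.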

How the data were processed

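RNA-seq libraries of 42 leaf samples in 14 groups of 3 were used, grouped by the labels. The mutant columns carry a line code and were taken as *rpn12a-236*, the 1 other genotype, and 0 columns were left over. The authors trimmed the reads (FastQC 0.11.4, Trimmomatic), quantified TAIR10 transcripts strand-specifically with kallisto 0.43.0, summed them to genes with tximport and applied the variance stabilizing transformation of DESeq2 1.14.1. The deposited values are a score: the authors' z-score of each gene over the 42 libraries. Count tests could not be used on them, and library depth cannot be read from them, so the spread of the 3 replicates gives the precision. The authors' quality report describes the libraries as differing little in size factor.

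A gene was tested if at least 3 libraries of a fit were above its floor, the lowest value where at least 2 libraries shared it. limma 3.58.1 in R 4.3.3 was fitted over all genes on the 15 *rpn12a-236* libraries, the 15 WT time-course libraries, the 27 WT libraries (darkened against light), the 15 WT light libraries, and the 30 libraries of both genotypes. p-values were two-sided, with Benjamini-Hochberg adjustment across every gene tested. Functions were tested on simulated data. Python 3.11.15 with pandas 2.3.3 read the RefSeq promoters (TAIR10.1) and matplotlib 3.10.9 drew the plots.

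The members, lists, rules and tests were chosen with earlier results of these data known. Members were printed by library where they had, per class, the 3 lowest or 2 highest differences between WT IDLs and WT light leaves at 6 d, the 2 widest interactions at a time, or were called higher in IDLs than in light leaves, and values are given for the groups of each comparison. *LHCB2.1*, *LHCB4.3*, *LHCB6*, *LHCB7*, *LHCA6*, *PSBS* and *PSBO1* were named after their values were seen. Of each further list at most 3 genes were named by the rule, and *GLK1*, *FD2*, *FNR1*, *CPSRP54*, *ELIP2* and the cell type markers after their values were seen. Alternatives were thresholds of 0.001 and 0.05, 1 fit of all 42 libraries, no filter, centring of each library, a replicate block, the 6 libraries of a comparison alone, and each library left out.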

Additional observations from a re-analysis of the deposited data

Results flagged for a closer look

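A difference between the genotypes in their response to darkening was called by the interaction test of limma 26 times among the 44 genes. At 6 h no member was called, beside 7.48% of all genes tested in either direction. Of all genes, 6.29% were higher at 1 d. At 3 d 7.77% were higher and 7.35% lower, and at 6 d 10.8% were higher and 10.6% lower. Each value below is the *rpn12a-236* difference from its own light leaves at 0 d minus the WT difference, in SD units of the gene, with 3 libraries in each group. The values share the light leaves at 0 d of both genotypes, so that darkness and time since 0 d cannot be told apart in them. No cause was tested.

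At 1 d the called values were 1.09 for *LHCA1*, 1.39 for *LHCA3*, 1.42 for *LHCA4*, 1.70 for *LHCB1.5*, 1.16 for *LHCB3*, 1.51 for *LHCB4.1* and 1.29 for *LHCB4.2* in the antenna. In PSI they were 1.27 for *PSAD1*, 1.33 for *PSAD2*, 1.84 for *PSAE2* and 0.97 for *PSAN*.

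At 3 d they were 0.95 for *LHCA1*, 1.39 for *LHCB1.5*, 1.36 for *PSBO2* and -0.84 for *LHCA5*.

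At 6 d they were 0.89 for *LHCA1*, 1.32 for *LHCA2*, 1.17 for *LHCA3*, 1.69 for *LHCB1.3*, 1.49 for *LHCB4.1* and -0.85 for *LHCA5* in the antenna. In PSI they were 1.55 for *PSAE2*, 1.16 for *PSAF* and 1.27 for *PSAN*, and in PSII 1.97 for *PSBO2* and 0.96 for *PSBP1*.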

How the results depend on the processing

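A count has no direction, so under the alternatives it could only stay, fall or rise. The 44 genes lower in WT IDLs than in WT light leaves at 6 d numbered 43 to 44 under the alternatives run. At a threshold of 0.001 the counts called were 7 in *rpn12a-236* IDLs at 1 d against its 0 d, 16 in WT IDLs at 6 h against WT 0 d, 9 in WT light leaves at 6 h, 1, 1 and 2 for the interaction at 1 d, 3 d and 6 d, and 0, 17, 11 and 16 between the genotypes at 6 h, 1 d, 3 d and 6 d. At a threshold of 0.05 they were 27 in WT light leaves at 6 h, 28, 18 and 22 for the interaction at 1 d, 3 d and 6 d, and 3 and 32 between the genotypes at 6 h and 3 d. On the 6 libraries alone, darkened against light WT leaves at 6 h gave 2, and with all 42 libraries fitted the interaction at 3 d gave 9. With 1 library left out the counts were 9 to 15 for *rpn12a-236* at 1 d, 11 to 35 for WT light leaves at 6 h, 3 to 24, 1 to 8 and 7 to 12 for the interaction at 1 d, 3 d and 6 d, and 0 to 1, 19 to 36 and 17 to 28 between the genotypes at 6 h, 1 d and 6 d. A group then left with 2 libraries is assumed to vary like the others.

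Deviations of same-numbered libraries from their group means correlated at -0.061 to 0.082 across genes, so numbers were not treated as pairs. With the replicate block the interaction gave 13, 4 and 15 at 1 d, 3 d and 6 d, beside 11, 4 and 11 without it. Of the values of single named genes under the alternatives, 4912 kept their direction and side of the threshold, 246 fell short of it, 47 passed it and 77 moved. Depth cannot be read from z-scores, so small differences not called here are not shown to be absent.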
